A study of Homo sapiens with 7 samples.

Results

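Edited line 2 was set against the parental cells in K562, a human chronic myelogenous leukemia line with erythroid features, over all genes of the deposited raw count table. The comparison took 5 of the series' 7 libraries, chosen by their labels. The 2 line 2 libraries came from cells with 2 alleles of Y391K-LSD1-GFP and 1 allele of wtLSD1-GFP. The 3 parental libraries came from cells homozygous for wtLSD1-GFP. Every group therefore carried the GFP tag, which the study design places at the C-terminus. Edited line 1, with 2 further libraries and the same genotype label as line 2, is used where the lines are compared. The labels do not say whether an edited line is 1 clone. Nor do they tie the libraries of 1 group to different cultures, so the p-values measure only the spread between these libraries, which may be technical.

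LSD1, the product of KDM1A, is a histone demethylase that removes methyl groups from lysine 4 of histone H3 and works with CoREST and the histone deacetylases HDAC1 and HDAC2. In blood cells it is brought to DNA by repressors such as GFI1B, and it silences genes of alternative lineages. The study design names Y391K a gain-of-function change that lets the enzyme work despite acetylation of a nearby histone H3 lysine, and the comparison asked which transcripts differed in cells that carry it.

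Total counts ran from 35841302 to 72577827 per library, with 69468590 and 39195148 in line 2. A count of 3 corresponded to 0.0412 to 0.0814 CPM (counts relative to the library total, with totals scaled by the trimmed mean of M-values, TMM), and floors and counting intervals cover counting error only. Across the 19098 genes tested, whose values are not independent of each other, the line 2 pair had a Pearson correlation of log2 CPM of 0.983, and the parental pairs had 0.965 to 0.987, lowest with parental 3. KDM1A (ENSG00000004487), the edited gene, stood at 244 and 318 CPM in line 2, against 237, 278 and 348 CPM in parental cells. The log2 difference between these groups was -0.04 (SE 0.19, adjusted p 0.942), which is not detectable, and an RNA level does not check a substitution. All 12 K562 markers (globins, erythroid receptors and transcription factors) had at least 1 FPKM in both groups. Of markers of other cells, 1 of 6 for T and B cells (CD3D), 1 of 9 for stroma, epithelium and endothelium (EPCAM) and 0 of 6 for mature myeloid cells reached that level. Their summed FPKM was 3.10 to 8.50 in line 2 and 2.94 to 5.22 in parental cells for T and B cells, 20.6 to 28.0 and 19.1 to 22.5 for the stromal group, and 0.0929 to 0.207 and 0.0374 to 0.264 for myeloid cells. CD8A, KRT5, MPO and S100A8 were listed at 0 in every line 2 and parental library, and the part of other cells in the results below was not tested. PECAM1 was not matched.

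Most of the genes called in line 2 were lower than in parental cells. By edgeR's quasi-likelihood F test, with p-values adjusted by Benjamini-Hochberg and a threshold of 0.05, 1078 of 19098 genes (5.64%) were called, 259 higher (1.36%) and 819 lower (4.29%). The changes were often large. With a fold of at least 2 there were 173 higher (0.906%) and 657 lower genes (3.44%), with a fold of at least 4 there were 92 and 405, and with a fold of at least 16 there were 20 and 150. In bulk RNA, fewer cells that express a gene and less RNA per cell cannot be told apart. The count depended on the libraries: it was 500 without line 2 replicate 1, 285 without line 2 replicate 2, 607 without parental 1 and 1848 without parental 3. Falls outnumbered rises in each of those 4 fits, with 394, 246, 512 and 1267 lower genes. They did not in limma on unfiltered log2(FPKM + 1), which called 67 higher and 63 lower genes.

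Line 1 gave 335 calls against the same parental libraries (1.75%), with 93 higher (0.487%) and 242 lower (1.27%). Of the line 2 calls, 75 passed in the same direction in line 1, 17 of them higher and 58 lower, which is 6.96% of the line 2 calls and 22.4% of the line 1 calls. Another 24 passed in the opposite direction. Since both comparisons share the parental libraries, these counts are a description and were not tested. The remaining 979 were not called in line 1, which alone does not show that the lines differ. The test of line 2 against line 1 itself called 454 genes higher (2.38%) and 795 lower (4.16%) in line 2. Of the line 2 calls against parental cells, 641 also differed from line 1 in the same direction, 109 of them higher (0.571%) and 532 lower (2.79%). That count was 260 without line 2 replicate 1, 168 without line 2 replicate 2, 252 without line 1 replicate 1, 342 without line 1 replicate 2, 383 without parental 1 and 1043 without parental 3. The count shared by both lines was 21 without line 1 replicate 2, 31 without line 1 replicate 1, 38 without line 2 replicate 2, 37 without parental 1, 35 without parental 2 and 262 without parental 3.

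**Figure D1:**
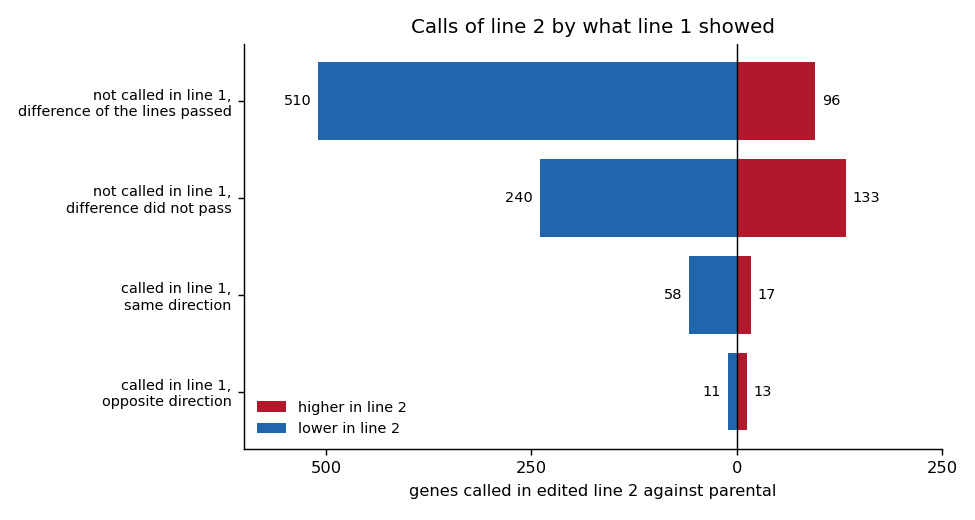
Genes called in edited line 2 against parental cells (bars to the right: higher in line 2, to the left: lower), grouped by what edited line 1 showed against the same parental libraries. The longest bar is that of 510 genes that were lower in line 2, were not called in line 1 and differed between the lines, and 58 genes were lower in both lines.

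A set of genes went to 0 or nearly 0 counts in line 2. At least 1 CPM in every parental library and at most 3 counts over both line 2 libraries was found for 16 genes, 12 of them with no count in line 2. POF1B (ENSG00000124429), an actin-binding protein, stood at 0 and 0 CPM in line 2 and 24.9 and 23.8 CPM in line 1, against 16.4, 15 and 15.3 CPM in parental cells. Line 2 was at least 578-fold lower (floor of 3 counts over the line, adjusted p 1.69e-05). SASH1 (ENSG00000111961), a scaffold protein of signalling, had 0 and 0 CPM in line 2 and 11.4 and 6.31 CPM in line 1, against 3.99, 2.51 and 3.35 CPM in parental cells, at least 119.5-fold lower in line 2 (adjusted p 0.000606). TMOD2 (ENSG00000128872), a tropomodulin that caps actin filaments, had 0 and 0 CPM in line 2 and 0.968 and 0.445 CPM in line 1, against 2.52, 3.73 and 2.79 CPM in parental cells. It was at least 114-fold lower in line 2 (adjusted p 0.00102). In each, line 2 and parental libraries did not overlap. GYG2, glycogenin 2, was at least 87.1-fold lower and stood at 6.67 and 4.82 CPM in line 1. Line 2 was at least 60.5-fold lower for ZNF136, a zinc finger gene, and at least 51.3-fold lower for RGS16, a regulator of G protein signalling. These last 2 were chosen after their values were seen.

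The genes at 1 to 3 counts in line 2 included a Notch ligand and a glypican. JAG1 (ENSG00000101384), the Notch ligand Jagged 1, had 0 and 0.0767 CPM in line 2, against 2.03, 2.33 and 3.21 CPM in parental cells, a parental to line 2 ratio of 98.1 (95% counting interval 33.3 to 478), with an adjusted p of 0.00361. GPC6 (ENSG00000183098), a cell surface proteoglycan, had 0 and 0.0256 CPM in line 2, against 3.17, 3.08 and 2.86 CPM in parental cells, a ratio of 337 (95% counting interval 60.3 to 13357), adjusted p 0.000606. TRIQK, a small membrane protein, had a ratio of 385 (95% counting interval 68.9 to 15253), adjusted p 0.000451. IGSF11, an immunoglobulin superfamily adhesion molecule chosen after its values were seen, had a ratio of 92.1 (95% counting interval 25.3 to 765), adjusted p 0.00273. In line 1, JAG1 had 1.29 and 0.915 CPM, GPC6 0.699 and 1.01 CPM and IGSF11 0.35 and 0.322 CPM, each below every parental library. TRIQK had 3.63 and 1.9 CPM in line 1. None of these genes was called in line 1. Of the 16 genes, 6 had at least 1 CPM in line 1 and 4 (ACSS3, DCAF8L1, LDB2 and MAGEB10) had at most 3 counts there too. Reads of MAGEB10 and of the zinc finger genes could be shared with close copies, so their values are uncertain.

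In the other direction, 3 genes had at most 3 counts in parental cells and at least 1 CPM in both line 2 libraries. LIN28A (ENSG00000131914), an RNA-binding protein of embryonic cells that blocks maturation of let-7 miRNAs, had 2.09 and 3.89 CPM in line 2, against 0.0271, 0 and 0 CPM in parental cells, a line 2 to parental ratio of 431 (95% counting interval 76.7 to 17062), adjusted p 0.00192. MAGEB1, a cancer-testis gene, had a ratio of 249 (95% counting interval 44.2 to 9902), and SRGN, the granule proteoglycan serglycin, one of 194 (95% counting interval 65.9 to 945). All 3 were also higher in line 2 than in line 1, with adjusted p 0.00764, 0.00667 and 0.0327.

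Several well expressed genes fell far in line 2 while line 1 stood near parental levels. PTGER3 (ENSG00000050628), the prostaglandin E2 receptor EP3, stood at 0.192 and 0.332 CPM in line 2 and 39.1 and 37.2 CPM in line 1, against 32.9, 28.7 and 41.7 CPM in parental cells. It fell by 7.10 on the log2 scale (SE 0.32, adjusted p 1.69e-05). DMXL2 (ENSG00000104093), rabconnectin-3 alpha, which serves the vesicular proton pump, stood at 1.3 and 0.767 CPM in line 2 and 145 and 98.3 CPM in line 1, against 108, 114 and 130.2 CPM in parental cells. It fell by 6.78 (SE 0.31, adjusted p 1.69e-05). CCND2 (ENSG00000118971), cyclin D2, which drives entry into the cell cycle, stood at 18.2 and 14.1 CPM in line 2 and 402 and 433 CPM in line 1, against 379, 347 and 362 CPM in parental cells. It fell by 4.48 (SE 0.18, adjusted p 1.69e-05). For these 3 genes every line 2 library lay below every parental and line 1 library, and the difference of the lines passed with an adjusted p of 1.85e-05 in each.

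Further named genes also fell. TBC1D4, a Rab GTPase-activating protein of glucose transporter traffic, had 2.86 and 3.32 CPM in line 2, against 59.2, 63.5 and 77.3 CPM in parental cells and fell by 4.44 (SE 0.22, adjusted p 3.02e-05). MYO6, the myosin that moves to the minus end of actin filaments, had 2.98 and 2.33 CPM in line 2, against 60.9, 62.9 and 57.1 CPM in parental cells and fell by 4.50 (SE 0.24, adjusted p 3.76e-05). Both pairs of line 2 values lay far below the parental range. SPIRE1, an actin nucleator, had 0.796 and 0.92 CPM in line 2, against 34.8, 30.5 and 30.3 CPM in parental cells and fell by 5.22 (SE 0.27, adjusted p 3.10e-05). CD99, a cell surface glycoprotein of leukocytes, had 1.33 and 1.18 CPM in line 2, against 22, 24 and 20.2 CPM in parental cells and fell by 4.13 (SE 0.23, adjusted p 5.01e-05). SPIRE1 and CD99 fell less far in line 1, by 2.17 and 1.20, and the difference of the lines passed for both (adjusted p 0.000334 and 0.000243). COLGALT2, a collagen galactosyltransferase, had 0.961 and 0.307 CPM in line 2, against 127, 108 and 42.2 CPM in parental cells and fell by 7.07 (SE 0.65, adjusted p 0.000591), with parental 3 lowest of the parental libraries, and its fall was 8.21 without line 2 replicate 1. SYTL5, a synaptotagmin-like protein that binds Rab27, fell by 6.59 (adjusted p 0.00411). Its fitted fall was 10.3 without line 2 replicate 1, which rests on 1 line 2 library and is of uncertain size. ZNF626, a zinc finger gene of 19p, fell by 6.92 (adjusted p 0.000621), or 7.61 without line 2 replicate 1. ARHGEF10, a guanine nucleotide exchange factor, had 8.74 and 5.14 CPM in line 2, against 83.5, 77.5 and 130.5 CPM in parental cells and fell by 3.80 (adjusted p 0.000451). ARHGEF3, of the same family, had 0.0275 and 0.204 CPM in line 2, against 2.55, 2.64 and 5.97 CPM in parental cells and fell by 5.19 (adjusted p 0.00619), and by 4.16 and 6.97 without line 2 replicate 1 and 2.

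Rises were fewer. STRA6 (ENSG00000137868), the membrane receptor that takes up retinol from its carrier, stood at 7.82 and 10.6 CPM in line 2 and 0 and 0.099 CPM in line 1, against 0.217, 0.108 and 0.0606 CPM in parental cells. It rose by 6.24 on the log2 scale (SE 0.62, adjusted p 0.00084). MDK (ENSG00000110492), the growth factor midkine, stood at 109 and 94.2 CPM in line 2, against 19.3, 16.7 and 21.6 CPM in parental cells, a rise of 2.40 (SE 0.17, adjusted p 0.000209). APOE (ENSG00000130203), apolipoprotein E, stood at 142 and 199.6 CPM in line 2, against 17.5, 34.2 and 29.1 CPM in parental cells, a rise of 2.66 (SE 0.27, adjusted p 0.000956). In all 3 the line 2 libraries lay above the parental and the line 1 libraries, and the difference of the lines passed (adjusted p 0.0013, 0.000283 and 0.001).

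RBPMS2, an RNA-binding protein of smooth muscle, had 13.5 and 14.7 CPM in line 2, against 1.36, 1.31 and 1.52 CPM in parental cells and rose by 3.34 (SE 0.25, adjusted p 0.000237). LGALS3BP, a secreted galectin-binding glycoprotein, had 14.7 and 9.46 CPM in line 2, against 0.488, 1.47 and 0.44 CPM in parental cells and rose by 3.91 (SE 0.56, adjusted p 0.00483), a value that was 4.71 without parental 2. FHL2, a LIM-domain cofactor, rose by 1.90 (adjusted p 0.0015), CASS4, an adhesion scaffold, by 1.39 (adjusted p 0.00234), NQO1, a quinone reductase, by 1.49 (adjusted p 0.00238), and the histone gene HIST2H2AB by 1.17 (adjusted p 0.00303). In these 4 the line 2 libraries lay above the parental range. H19, an imprinted non-coding RNA, had 33.3 and 36 CPM in line 2, against 1.9, 7.21 and 1.41 CPM in parental cells and rose by 3.30 (adjusted p 0.0117), but the call was lost without line 2 replicate 2 (adjusted p 0.0723), and its rise was 4.40 without parental 2. The non-coding AC137934.1 rose by 2.80 (adjusted p 0.00174), and RP1-140K8.5 by 3.50 (adjusted p 0.00635, 0.0679 without line 2 replicate 2, with a rise of 2.60).

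Some of the largest rises came from genes at low parental levels. Their calls were lost without line 2 replicate 2 and, for all but C15orf26, without replicate 1. LGALS12, a galectin of fat cells, had 5.2 and 4.55 CPM in line 2, against 0, 0.341 and 0.242 CPM in parental cells, with adjusted p 0.0136 overall and 0.0685 and 0.0789 without line 2 replicate 1 and 2. SCIN, an actin-severing protein, had 26.7 and 25.1 CPM in line 2, against 0.543, 0.108 and 2.61 CPM in parental cells, with adjusted p 0.0159 overall and 0.0603, 0.0789 and 0.0556 without line 2 replicate 1, replicate 2 and parental 1. Without parental 3 its rise was 6.46, against 4.53 over all libraries. SCRT2, FPR3, ZNF235, MAGEB2 and CKM rose by 3.93, 3.90, 3.71, 3.03 and 3.32, and each lost its call without line 2 replicate 1 (adjusted p 0.0792, 0.0859, 0.0545, 0.0738 and 0.126) and without replicate 2 (0.219, 0.0893, 0.0869, 0.0743 and 0.0863). CKM lost it without parental 1 too (0.0707). Without parental 2 the rises of SCRT2 and CKM were 5.03 and 3.98. C15orf26 rose by 3.36 and lost its call without line 2 replicate 2 (0.0818).

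**Figure D2:**
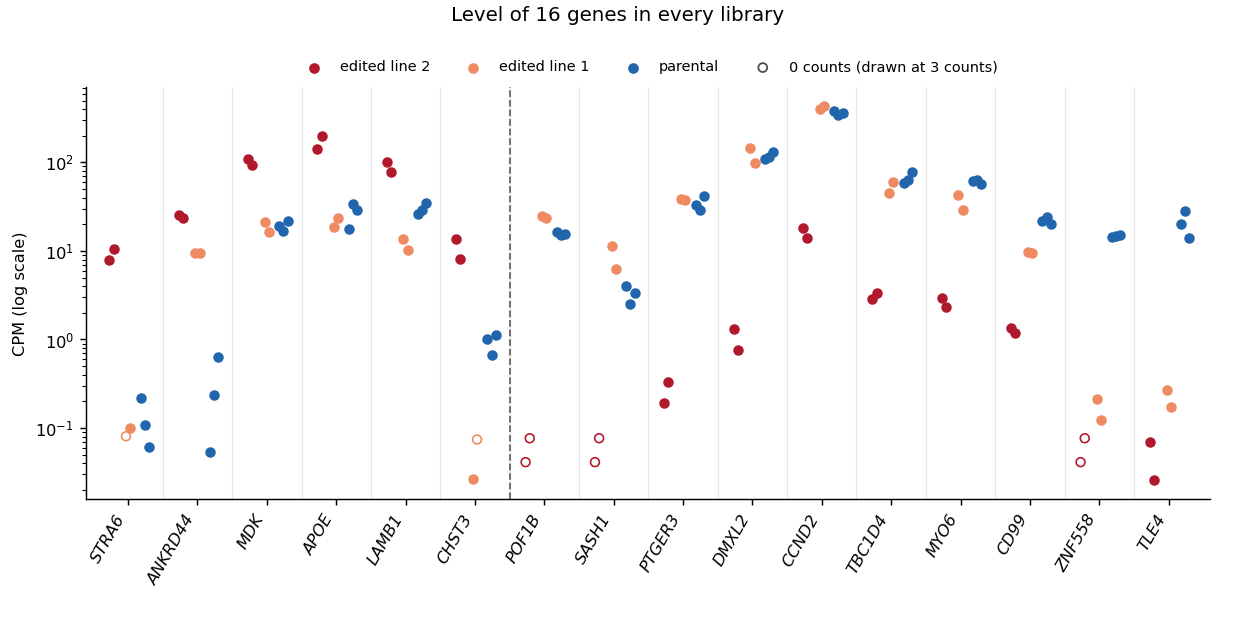
CPM (log axis) of 16 genes in each library of edited line 2, edited line 1 and parental cells, with genes higher in line 2 left of the dashed line and lower ones right of it, and open points for libraries with 0 counts, drawn at the level of 3 counts. The line 2 libraries of PTGER3, DMXL2 and CCND2 lie below both other groups, while ZNF558 and TLE4 are low in both edited lines.

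Genes called in both lines moved by like or unlike amounts. LRRK1 (ENSG00000154237), a leucine-rich repeat kinase, had 0.11 and 0 CPM in line 2 and 0.538 and 0.099 CPM in line 1, against 5.4, 5.56 and 5.32 CPM in parental cells. It fell by 6.30 in line 2 and fell by 4.10 in line 1 (adjusted p 0.00405 and 0.0311). Its fitted line 2 value was a fall of 5.60 without line 2 replicate 2 and of 11 without replicate 1. The latter rests on 1 line 2 library at 0 CPM, so it depends on the prior count and is no measured size. DPF3, a subunit of the BAF chromatin remodeller, had 6.82 and 8.56 CPM in line 2 and 5.51 and 7.25 CPM in line 1, against 0.705, 1.43 and 1.82 CPM in parental cells, rises of 2.52 and 2.25 (adjusted p 0.0058 and 0.0235), and the line 2 call was lost without line 2 replicate 2 (0.0560). LIPH, a phospholipase, rose by 1.71 and 2.05, with line 2 calls lost without line 2 replicate 2, parental 1 and parental 2 (0.297, 0.107 and 0.0867). ARHGAP28, a GTPase-activating protein, rose by 2.38 and 3.05, with the line 2 call lost without line 2 replicate 1 (0.0512). The non-coding AP006222.2 rose by 1.94 and 1.10 (adjusted p 0.00102 and 0.031). TMEM154, a membrane protein, had 0.92 and 0.179 CPM in line 2, against 50.7, 29.8 and 4.77 CPM in parental cells. It fell by 5.58 in line 2 and fell by 5.52 in line 1, and its line 2 call was lost without line 2 replicate 1 (0.0662, fall 7.27) or 2 (0.161, fall 4.95). Without parental 1, the highest library, the fall was 4.89. Both lines share the parental libraries, so these values are not independent of each other.

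Some genes moved in opposite ways in the lines. CHST3 (ENSG00000122863), a chondroitin sulfotransferase, had 13.7 and 8.15 CPM in line 2 and 0.0269 and 0 CPM in line 1, against 1, 0.664 and 1.12 CPM in parental cells. It rose by 3.56 in line 2 (adjusted p 0.00153) and fell by 5.92 in line 1 (adjusted p 0.00775). LAMB1 (ENSG00000091136), the laminin beta 1 chain, had 101 and 77 CPM in line 2 and 13.6 and 10.2 CPM in line 1, against 26.3, 29.3 and 34.9 CPM in parental cells. It rose by 1.56 in line 2 and fell by 1.35 in line 1 (adjusted p 0.00252 and 0.0164). In both, line 2 was the highest of the 3 groups and line 1 the lowest, with no overlap. COL23A1, a transmembrane collagen, rose by 1.85 and fell in line 1 by 3.77, with the line 2 call lost without line 2 replicate 1 (0.0790). ARAP3, a GTPase-activating protein for Arf, rose by 2.16 and fell in line 1 by 1.84. ANKRD33B rose by 2.67 and fell in line 1 by 4.27. LINGO1, a leucine-rich repeat membrane protein, PIK3AP1, an adaptor of PI3 kinase, and the non-coding CTB-26E19.1 rose by 1.48, 1.42 and 2.10. These last 3 lost their calls without line 2 replicate 2 (0.0743, 0.154 and 0.159), and the last 2 also without line 2 replicate 1 (0.0579 and 0.0838) and parental 1 (0.0636 and 0.0587). The reverse pattern held for GPR126 (ENSG00000112414), an adhesion receptor, with 0.549 and 0.358 CPM in line 2 and 28.3 and 21.2 CPM in line 1, against 10.9, 9.85 and 8.71 CPM in parental cells. It fell by 4.39 in line 2 (adjusted p 0.000186) and rose by 1.34 in line 1 (adjusted p 0.0261). DDX60L, a helicase of the interferon response, fell by 3.59 in line 2 (4.54 without line 2 replicate 1) and rose by 2.66 in line 1. The non-coding RP11-197K6.1 fell by 2.25 and rose by 1.16.

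The promoters of genes that moved this far were of different kinds. The 250 bases before the start were taken from RefSeq (GRCh38.p14) for 10117 of 12645 tested protein-coding genes (80.0%). The median number of CG dinucleotides was 21 over all of these. Genes lower by at least 4-fold from a parental mean of at least 2 CPM had a median of 19 CG (81.0% matched), beside 22 over all tested genes of that level (82.1% matched). The same check over all lower genes was void, since 78.2% matched, and so was one of higher genes against genes with a parental mean under 2 CPM, of which 70.2% matched. Shown are a CG-rich and a CG-poor promoter of a gene that fell, DMXL2 and POF1B, and of one that rose, ANKRD44 and STRA6, with CG in capitals, all read on the minus strand. They lie at chr15:51622772-51623021 (DMXL2, 29 CG), chrX:85379666-85379915 (POF1B, 3 CG), chr2:197310781-197311030 (ANKRD44, 38 CG) and chr15:74212260-74212509 (STRA6, 2 CG).
DMXL2: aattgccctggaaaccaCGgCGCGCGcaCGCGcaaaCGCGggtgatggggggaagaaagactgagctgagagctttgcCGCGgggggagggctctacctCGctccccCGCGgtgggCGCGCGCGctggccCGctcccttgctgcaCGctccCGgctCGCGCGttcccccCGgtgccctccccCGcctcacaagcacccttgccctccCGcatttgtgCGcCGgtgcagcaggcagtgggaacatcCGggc
POF1B: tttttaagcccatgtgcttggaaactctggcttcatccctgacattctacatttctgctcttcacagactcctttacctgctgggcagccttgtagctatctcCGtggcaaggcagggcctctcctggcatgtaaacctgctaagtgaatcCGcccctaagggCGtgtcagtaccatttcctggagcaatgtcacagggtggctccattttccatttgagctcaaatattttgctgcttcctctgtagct
ANKRD44: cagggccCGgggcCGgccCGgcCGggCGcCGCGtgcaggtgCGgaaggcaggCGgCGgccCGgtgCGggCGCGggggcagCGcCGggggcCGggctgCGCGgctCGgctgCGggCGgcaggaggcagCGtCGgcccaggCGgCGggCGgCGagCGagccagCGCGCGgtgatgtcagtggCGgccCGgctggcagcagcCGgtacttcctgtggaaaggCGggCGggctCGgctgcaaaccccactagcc
STRA6: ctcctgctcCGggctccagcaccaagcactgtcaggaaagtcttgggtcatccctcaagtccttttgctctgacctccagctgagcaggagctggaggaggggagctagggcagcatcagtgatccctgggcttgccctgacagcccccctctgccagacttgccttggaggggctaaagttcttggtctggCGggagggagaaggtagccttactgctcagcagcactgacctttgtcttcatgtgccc

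Genes of the short arm of chromosome 19 were lower together in line 2. Of 587 tested genes on 19p, 178 fell (30.3%) and 3 rose (0.511%), beside 4.29% and 1.36% over all genes. The median log2 fold change was -0.74 and 534 of the 587 (91.0%) had a negative value, against a median of -0.06 with 3 lower genes in line 1. The arm held 2.28 and 2.35% of all counts in the line 2 libraries, 3.99 and 3.78% in line 1, and 3.99, 3.87 and 4.69% in parental cells, with no overlap of line 2 with either group. The order of genes was read from GENCODE release 29 (GRCh38, while the files use GRCh37). In that order the running median over 31 genes stayed below -0.5 for 517 genes from PLK5 to ZNF91 (161 lower, median -0.76) and for 48 genes from MIER2 to MUM1 (13 lower, median -0.68). The count of lower 19p genes was 65 without line 2 replicate 1, 35 without line 2 replicate 2 and 111 without parental 1.

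Among the 19p genes was TYK2 (ENSG00000105397), a Janus kinase, which had 65.8 and 65.6 CPM in line 2, against 134, 138 and 164 CPM in parental cells and fell by 1.14 (SE 0.14, adjusted p 0.00251). STK11, the kinase LKB1, chosen after its values were seen, had 70.5 and 64.3 CPM in line 2, against 133, 139 and 172 CPM in parental cells and fell by 1.14 (adjusted p 0.00375, 0.0580 without line 2 replicate 2). The long arm showed a smaller shift up. On 19q, 41 of 668 tested genes rose (6.14%) and 5 fell, with a median of 0.28 in line 2 and 0.38 in line 1. Outside 19p, 897 of 18511 genes were called, 256 higher (1.38%) and 641 lower (3.46%), so most calls of line 2 lay elsewhere.

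**Figure D3:**
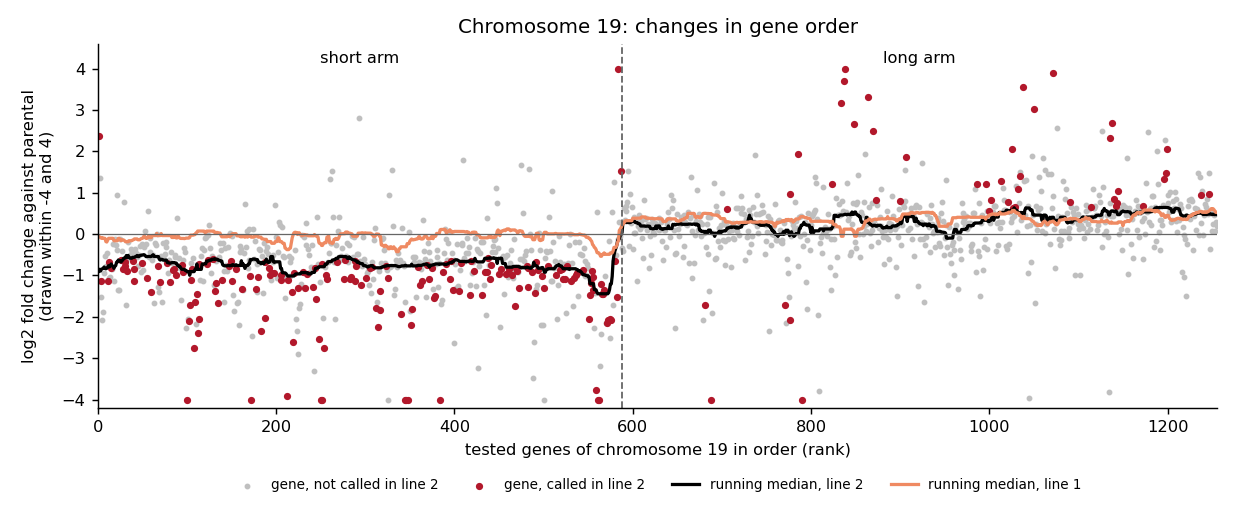
Log2 fold change against parental cells of the tested genes of chromosome 19, drawn by rank in gene order, with the short arm left and the long arm right of the dashed line. The running median of 31 genes lies below 0 along the short arm in line 2 (black) and near 0 in line 1 (orange).

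Shorter runs of neighbours also moved together. At least 3 adjacent tested genes were called in the same direction in 28 places, 11 of them on 19p. On 15q, DMXL2 and its neighbours SCG3, LYSMD2 and TMOD2 all fell, with a median of -6.61 in line 2 and -0.82 in line 1. SCG3, a granule protein of neuroendocrine cells, had a parental to line 2 ratio of 107 (95% counting interval 18.8 to 4238), and LYSMD2, chosen after its values were seen, had 0.0686 and 0.128 CPM in line 2, against 6.54, 7.17 and 3.62 CPM in parental cells and fell by 5.93 (adjusted p 0.000582). On Xq, ZNF711, POF1B and CHM fell together. ZNF711, a zinc finger activator, had 1.36 and 0.281 CPM in line 2, against 50.5, 43.7 and 34.8 CPM in parental cells and fell by 5.60 (adjusted p 0.000711), and by 7.23 without line 2 replicate 1 or 4.99 without replicate 2. CHM, the Rab escort protein REP1, fell by 1.49 (adjusted p 0.0074, 0.0916 without line 2 replicate 2). On 18p, SLMO1, a non-coding gene and SPIRE1 fell, SLMO1 by 5.66 (adjusted p 0.000792). The non-coding gene overlaps SPIRE1 on the other strand, and since no source used here gives the strand setting of the counting, reads of overlapping genes cannot be told apart. Its call was lost without line 2 replicate 1 (0.0559) or 2 (0.0528).

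On 5q, SLCO6A1, LINC00491 and PAM fell with a median of -4.88 (line 1 -0.25). PAM, which amidates peptide hormones, had 0.439 and 0.0511 CPM in line 2, against 8.19, 11.4 and 7.02 CPM in parental cells and fell by 5.01 (adjusted p 0.00252). It fell by 7.35 without line 2 replicate 1 and fell by 4.33 without replicate 2. On 12p, STK38L, ARNTL2 and SMCO2 fell. STK38L, a kinase of the Hippo pathway, fell by 2.32 (adjusted p 0.000228), and ARNTL2, a partner of the clock protein CLOCK, by 3.65 (adjusted p 0.000415). On 22q, IL17RA, CECR5 and CECR2 fell. IL17RA, the interleukin 17 receptor, had 7.18 and 5.88 CPM in line 2, against 16.8, 15.7 and 13.7 CPM in parental cells and fell by 1.24 (adjusted p 0.00832, 0.105 without line 2 replicate 2), and CECR2, a chromatin remodelling factor, by 5.79 (adjusted p 0.00287), by 11 without line 2 replicate 1 and by 5.07 without replicate 2. On 14q, DLK1 (ENSG00000185559), an imprinted Notch-related membrane protein, and 2 neighbouring non-coding genes fell. DLK1 averaged 109 ± 36.9 CPM in line 2 (SD, n = 2) and had 68 and 48.5 CPM in line 1, against 524 ± 145 CPM in parental cells (SD, n = 3), with no overlap of either line and parental cells, and fell by 2.27 (adjusted p 0.00353). IGF1R, the receptor of insulin-like growth factor 1, fell with 2 non-coding neighbours on 15q by 1.23 (adjusted p 0.0123, 0.122 without line 2 replicate 2). These genes other than IL17RA were chosen after their values were seen. The fitted fall of 11 for CECR2 rests on 1 line 2 library and is of uncertain size.

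Rises also came in runs. ANKRD44, AC017035.2 and ANKRD44-IT1 rose together on 2q, with a median of 6.06 in line 2 and 4.45 in line 1, and the non-coding pair overlaps ANKRD44, so their reads cannot be told apart. On 19q, PPP1R12C and the troponin genes TNNT1 and TNNI3 rose with a median of 0.76, against -0.22 in line 1.

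Over 34 gene lists by function, 69 of 822 tested genes were called (8.39%), beside 5.64% of all genes tested. The median log2 fold change of all genes tested was -0.01. The lists were chosen with earlier results known and are described by counts and medians, with no test of a list. A range given after a list's median is over the 7 fits that each leave out 1 library. Many medians took the other sign in such a fit. Without parental 3 this was so for the erythroid identity, globin, megakaryocyte, sterol, immediate early, cancer-testis, STAT5 target, LSD1 complex and H3K4 lists. Without line 2 replicate 1 it was so for the same lists other than the immediate early and cancer-testis ones, and for the apoptosis and lymphoid lists. Without line 2 replicate 2 it was so for the glycolysis, ribosome biogenesis, HOX, chaperone, antigen presentation, lymphoid and H3K4 lists. Without parental 2 the chaperone, antigen presentation, cytokine receptor and STAT5 target lists turned, and without parental 1 the first 3 of these.

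**Figure D4:**
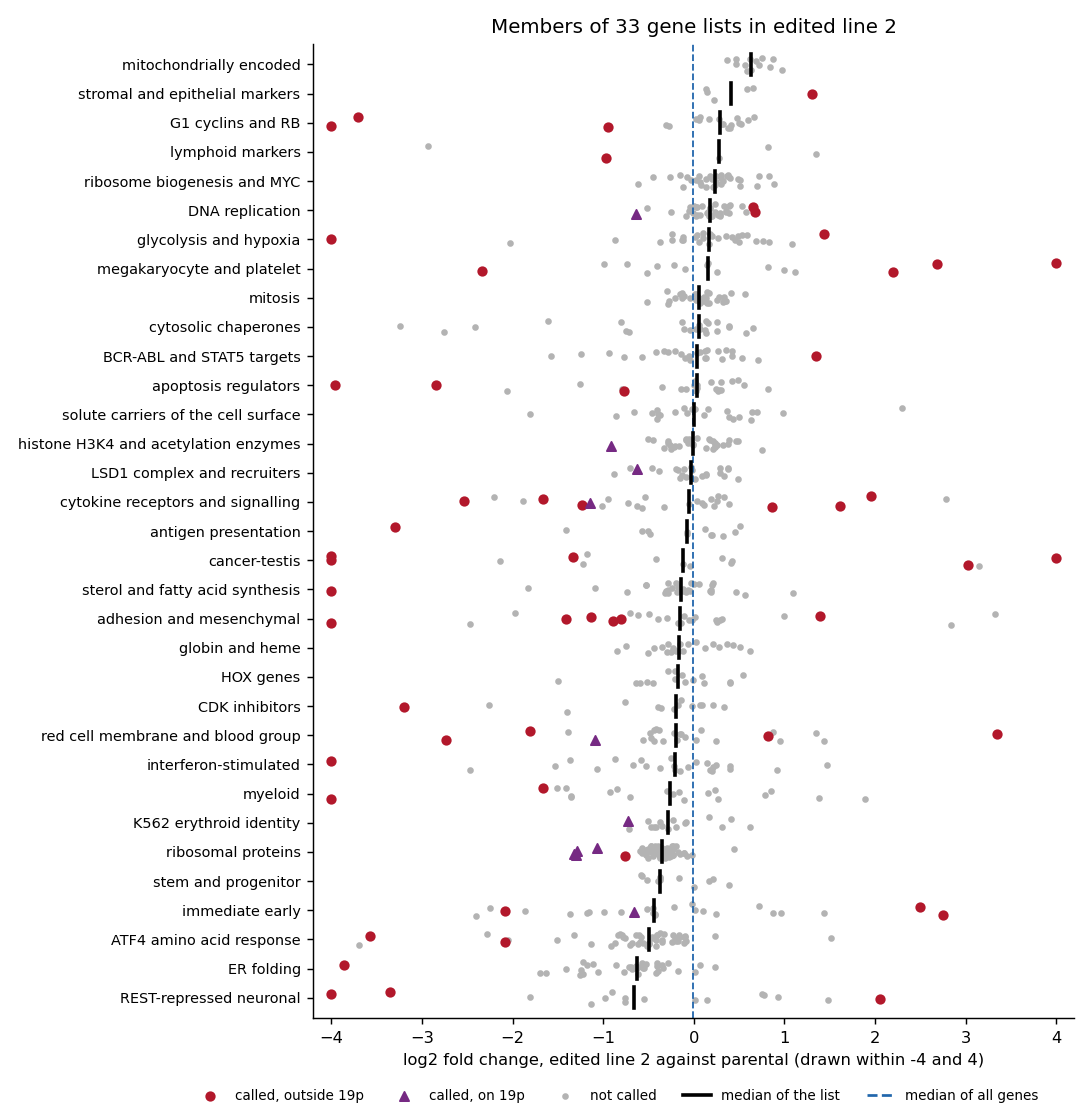
Log2 fold change in edited line 2 against parental cells of the members of 33 gene lists, with called members in red (triangles in purple where on 19p), the list's median as a black bar and the median of all genes, -0.01, as a dashed line. The ER folding and ATF4 lists have medians of -0.63 and -0.50 with 1 and 2 called members, and the mitochondrially encoded genes have a median of 0.63 with none called.

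Of 20 tested G1 cyclins and RB genes, which govern entry into the cell cycle, 0 rose and 3 fell (CCND2, CCND1 and CDK6), while 15 values were positive and the list's median was 0.29 (0.19 to 0.33). CCND1, cyclin D1, had 4.47 and 1.41 CPM in line 2, against 45.9, 51.2 and 20.5 CPM in parental cells and fell by 3.70 (adjusted p 0.00551), and by 4.78 without line 2 replicate 1. It also fell by 3.19 in line 1 (adjusted p 0.0235). CDK6, the kinase that pairs with D cyclins, had 46.7 and 53.3 CPM in line 2, against 107, 104 and 79.9 CPM in parental cells and fell by 0.95 (adjusted p 0.0146), a call lost without line 2 replicate 1 (0.104), line 2 replicate 2 (0.0873) or parental 1 (0.0574). The 14 CDK inhibitors had 1 member called, CDKN1A, which fell by 3.20 and lost its call without line 2 replicate 1 (0.106) or 2 (0.0697, with a fall of 3.88), and its fall was 2.57 without parental 3. Of 38 DNA replication genes, 2 rose and 1 fell, with a median of 0.18 (0.08 to 0.31): POLD1 and POLA1, DNA polymerase subunits, rose by 0.65 and 0.67, and CHAF1A, a histone chaperone subunit on 19p, fell by 0.64. These calls were lost in 4, 5 and 6 of the 7 fits without 1 library (adjusted p up to 0.223, 0.352 and 0.169), each without either line 2 library and without parental 1.

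Apoptosis regulators had 0 of 24 members higher and 3 lower (12.5%), with a median of 0.03 (-0.04 to 0.10). BCL2 (ENSG00000171791), the inhibitor of mitochondrial apoptosis, had 1.65 and 0.946 CPM in line 2 and 28.3 and 13.8 CPM in line 1, against 30.5, 18.9 and 12.7 CPM in parental cells and fell by 3.96 (SE 0.51, adjusted p 0.00292). Its line 2 and parental libraries did not overlap. PMAIP1, the BH3-only protein NOXA, fell by 0.77 (adjusted p 0.0436), a call lost in 6 of the 7 fits without 1 library, all but that without parental 3 (adjusted p up to 0.382).

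Protein folding genes of the endoplasmic reticulum (ER) lay below parental levels as a group, with 1 call. Of 36 tested, 0 rose and 1 fell, 33 had a negative log2 fold change and the median was -0.63 (line 1 -0.23). In 26 the line 2 libraries lay wholly below the parental ones. Over all 19098 genes tested this held for 3966, and 39.1% had groups that did not overlap when both directions are counted. ERO1LB, an ER oxidase, had 1.03 and 0.409 CPM in line 2, against 10.8, 7.21 and 14.5 CPM in parental cells and fell by 3.86 (adjusted p 0.00523, 0.0528 without line 2 replicate 2), and by 4.71 without line 2 replicate 1. HSPA5, the chaperone BiP, had 308 and 390.1 CPM in line 2, against 702, 464 and 2069 CPM in parental cells, and CALR, calreticulin, had 682 and 999.9 CPM in line 2, against 1367, 1307 and 5523 CPM in parental cells. HSP90B1, the chaperone GRP94, had 779 and 979 CPM in line 2, against 1021, 893 and 3575 CPM in parental cells. None of these 3 passed (adjusted p 0.175, 0.158 and 0.328), HSP90B1 overlapped between the groups, and parental 3 was high in each. HERPUD1, of ER-associated degradation, had 85.6 and 50.7 CPM in line 2, against 169.5, 122 and 192 CPM in parental cells (adjusted p 0.0544). Without parental 3 the list's median was -0.33. HSPA5, CALR, HSP90B1 and HERPUD1 were chosen after their values were seen.

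The ER stress element, CCAAT and CCACG with 9 bases between them, searched on both strands, was found in the promoters of 7 of 31 list members with a sequence (22.6%), beside 0.129% of tested protein-coding genes and 0.0806% of the 27305 promoters of the table. These members were HSPA5, ERO1LB, XBP1, CANX, HSP90B1, CALR and CRELD2, of which only ERO1LB was called in line 2. The list was chosen by function, so its share does not bear on the changes in line 2. Among genes called lower in line 2, the element was found in 1 of 552 promoters (0.181%), that of ERO1LB. Of these genes 78.2% matched a promoter, so this share is not compared with that of all genes. The HSPA5 promoter is shown because it holds this element, which is in capitals, at chr9:125241344-125241593 on the minus strand.
HSPA5: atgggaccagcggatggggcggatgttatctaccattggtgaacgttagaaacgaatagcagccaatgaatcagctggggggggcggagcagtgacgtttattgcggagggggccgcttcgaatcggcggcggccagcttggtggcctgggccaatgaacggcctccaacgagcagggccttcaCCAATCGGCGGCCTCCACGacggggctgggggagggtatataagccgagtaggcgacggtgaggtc

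The amino acid response genes that the factor ATF4 controls had 0 of 53 members higher and 2 lower, with a median of -0.50 (-0.90 without line 2 replicate 1 and -0.22 without replicate 2, line 1 0.01) and 51 negative values. STC2, the secreted glycoprotein stanniocalcin 2, had 4.61 and 2.17 CPM in line 2, against 53.9, 44.6 and 25.2 CPM in parental cells and fell by 3.58 (adjusted p 0.00198), and by 4.23 without line 2 replicate 1. ATF3, a stress transcription factor, had 13.9 and 3.81 CPM in line 2, against 52.3, 38.3 and 22.9 CPM in parental cells and fell by 2.08 (adjusted p 0.0497), a call lost without either line 1 library, line 2 replicate 2, parental 1 or parental 2 (adjusted p up to 0.191), with falls of 3.29 and 1.45 without line 2 replicate 1 and 2. The line 2 libraries differed: the list's median against the parental mean, as log2 of CPM with 0.1 added, was -0.21 and -0.92 in line 2 replicate 1 and 2, against 0.17, 0.01 and -0.21 in parental 1 to 3. For the ER folding list it was -0.55 and -0.68 in line 2, against -0.10, -0.39 and 0.34 in parental cells.

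**Figure D5:**
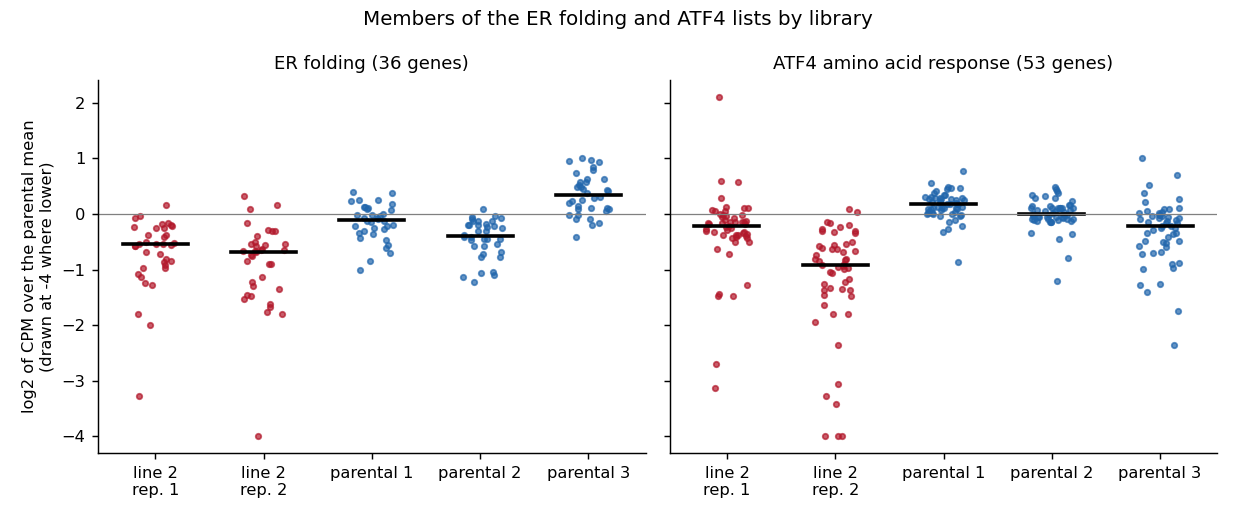
Log2 of CPM over the parental mean (0.1 CPM added) for each member of the ER folding and ATF4 lists in the line 2 and parental libraries, with the median of each library as a black bar. Both line 2 medians of the ER folding list lie below the 3 parental ones, while in the ATF4 list replicate 1 of line 2 (-0.21) is level with parental 3 (-0.21).

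Ribosomal protein genes had 0 of 70 members higher and 5 lower, with a median of -0.35 and 69 negative values (line 1 -0.23). RPL36, RPS28 and RPS15, which lie on 19p, fell by 1.33, 1.29 and 1.07, and RPL3 on 22q fell too. RPL36 had 207 and 177 CPM in line 2, against 473, 413 and 556 CPM in parental cells, with an adjusted p of 0.00292. The call of RPS15 was lost without line 2 replicate 1 (0.0966) or 2 (0.0873). Outside 19p the list's median was -0.34, and without parental 3 the median of all members was -0.23. Ribosomal protein genes have many processed copies, so these counts are uncertain. The 13 mitochondrially encoded genes had a median of 0.63 (line 1 0.53, and 0.44 without parental 3), and all were positive. None passed in edgeR, 8 had an unadjusted p under 0.05, and DESeq2 called 2. MT-ND4, a subunit of respiratory complex I, had 892 and 812 CPM in line 2, against 624, 733 and 626 CPM in parental cells (adjusted p 0.268).

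Among blood lineage lists the share called ran from none of the globin and heme genes and of the stem and progenitor genes to 5 of 26 red cell membrane genes (19.2%) and 4 of 16 megakaryocyte genes. Of 17 erythroid identity genes, 0 rose and 1 fell (5.88%, median -0.29, range -0.47 to 0.10): LYL1, a hematopoietic transcription factor on 19p, had 173 and 158 CPM in line 2, against 274, 271 and 278 CPM in parental cells and fell by 0.73 (adjusted p 0.0257). Its call was lost without line 2 replicate 1 (0.0947), line 2 replicate 2 (0.239), parental 1 (0.0857) or parental 2 (0.0649). None of 22 globin and heme genes passed in edgeR (3 with an unadjusted p under 0.05, 0 in DESeq2), with a median of -0.16 (-0.32 to 0.17). HBG2, the fetal globin G-gamma, had 849 and 1638 CPM in line 2, against 936, 1214 and 2221 CPM in parental cells (adjusted p 0.792), with overlapping groups. Red cell membrane genes had 2 of 26 higher and 3 lower (median -0.20, range -0.28 to -0.11). ADD2, beta adducin of the membrane skeleton, had 2.73 and 3.09 CPM in line 2, against 12.1, 19.1 and 26.6 CPM in parental cells and fell by 2.73 (adjusted p 0.00261). TMOD1, the erythrocyte tropomodulin, fell by 1.81 (adjusted p 0.00181), and the blood group gene ICAM4 by 1.09, a call lost without line 2 replicate 1 (0.0567) or 2 (0.133). CD36, a scavenger receptor, had 0.288 and 0.281 CPM in line 2 and 3.74 and 6.41 CPM in line 1, against 0.0543, 0.0179 and 0.0152 CPM in parental cells. It rose by 3.34 in line 2, a call lost without line 2 replicate 1 (0.0674), line 2 replicate 2 (0.0743) or parental 2 (0.0564), and was lower than in line 1 (adjusted p 0.0023).

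Megakaryocyte and platelet genes had 3 of 16 higher and 1 lower (median 0.16, range -0.07 to 0.42). TBXAS1 (ENSG00000059377), thromboxane synthase, had 42.5 and 25.9 CPM in line 2, against 7.81, 10.1 and 4.55 CPM in parental cells and rose by 2.2 (SE 0.33, adjusted p 0.00579). P2RY1, the platelet ADP receptor, had 4.21 and 5.14 CPM in line 2, against 25.9, 19.3 and 25.7 CPM in parental cells and fell by 2.34 (SE 0.21, adjusted p 0.000591). Neither was called in line 1, and both differed between the lines (adjusted p 0.00912 and 0.000406). GP6, the platelet collagen receptor, rose by 2.69, a call lost without line 2 replicate 1 (0.0848). Of 20 myeloid genes 0 rose and 2 fell (10.0%, median -0.26, range -0.38 to -0.19). CD300A, an inhibitory receptor, had 1.28 and 0.307 CPM in line 2, against 14.8, 21.5 and 10.2 CPM in parental cells and fell by 4.22 (adjusted p 0.00467), and by 5.63 and 3.60 without line 2 replicate 1 and 2. CSF2RB, the beta chain shared by several cytokine receptors, fell by 1.67, a call lost without line 2 replicate 1 (0.0554), line 2 replicate 2 (0.311), parental 1 (0.124) or parental 2 (0.0829). Of 12 stem and progenitor genes none passed in edgeR (4 with an unadjusted p under 0.05, 0 in DESeq2, median -0.38, range -0.40 to -0.19). GATA2, a progenitor transcription factor, had 184 and 206 CPM in line 2, against 243, 262 and 264 CPM in parental cells (adjusted p 0.12). LEF1 was the 1 called of 5 lymphoid genes and fell by 0.97 (adjusted p 0.00599, 0.0825 without line 2 replicate 2). KRT8, an epithelial keratin, was the 1 called of 6 stromal and epithelial genes. It had 247 and 494 CPM in line 2, against 156, 144 and 149 CPM in parental cells and rose by 1.31, a call lost without line 2 replicate 2 (0.309, rise 0.71), parental 1 (0.0813) or parental 2 (0.0812).

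Cytokine receptor genes moved both ways, with 3 of 27 higher and 4 lower (25.9% called, median -0.06, range -0.16 to 0.08). IL2RG (ENSG00000147168), the common gamma chain, had 19.1 and 25.7 CPM in line 2, against 4.37, 5.67 and 7.21 CPM in parental cells and rose by 1.96 (SE 0.26, adjusted p 0.00322). IL4R (ENSG00000077238), the interleukin 4 receptor that pairs with it, had 1.26 and 0.946 CPM in line 2, against 7.16, 6.22 and 6.03 CPM in parental cells and fell by 2.54 (SE 0.30, adjusted p 0.00197). The groups did not overlap for either. IL1R1, the interleukin 1 receptor, rose by 1.61 (0.0788 without line 2 replicate 2), and the others called were TNFRSF1B, higher, and CSF2RB, TYK2 and IL17RA, lower.

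Adhesion and mesenchymal genes had 1 of 26 higher and 5 lower (23.1% called, median -0.16, range -0.27 to -0.09). ZEB1, a transcription factor of mesenchymal cells, had 17.7 and 19.2 CPM in line 2, against 39.1, 38.5 and 43.4 CPM in parental cells and fell by 1.13 (adjusted p 0.00321). CD44, the hyaluronan receptor, had 0.384 and 0.358 CPM in line 2, against 7.43, 10.0 and 3.79 CPM in parental cells and fell by 4.24 (adjusted p 0.00375). VIM, vimentin, fell by 0.90, a call lost without line 2 replicate 1 (0.0570). ITGB5, integrin beta 5, fell by 1.41, a call lost without line 2 replicate 1 (0.103) or 2 (0.0800). ITGAV, which pairs with it, fell too. NES, nestin, rose by 1.39, a call lost without line 2 replicate 2 (0.276), parental 1 (0.0707) or parental 2 (0.0573).

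Immediate early genes had 2 of 26 higher and 2 lower, with a median of -0.44 that was 0.01 without parental 3. FOS had 3.65 and 19.8 CPM in line 2, against 0.841, 1.99 and 2.32 CPM in parental cells, and FOSB had 3.03 and 15.8 CPM in line 2, against 1.9, 1.24 and 1.86 CPM in parental cells. Replicate 2 of line 2 was high for both of these growth factor-induced AP-1 genes, and without it the adjusted p was 0.583 and 0.585 and the rise 1.07 and 0.86, against 2.75 and 2.49 over all libraries. Both calls were also lost without line 1 replicate 1, line 1 replicate 2, parental 1 or parental 2 (adjusted p 0.0505 to 0.113). IER2, on 19p, and ATF3 fell, IER2 by 0.66, a call lost in the same 6 fits as that of PMAIP1 (adjusted p up to 0.252). The BCR-ABL and STAT5 target list had 1 of 27 called (median 0.04, range -0.07 to 0.07). ID1, an inhibitor of basic helix-loop-helix factors, rose by 1.35, a call lost without line 2 replicate 2 (0.267) or parental 1 (0.0613).

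Cancer-testis genes, which are silent in most adult tissues, had 2 of 15 higher and 3 lower (33.3% called, median -0.12, range -0.20 to 0.02). MAGEB1 and MAGEB2 rose, and DCAF8L1, MAGEB10 and MAGEC1 fell. DCAF8L1 had 0 and 0 CPM in line 2, against 4.02, 2.69 and 4.14 CPM in parental cells, at least 134-fold lower in line 2, and no counts in line 1. Of 16 neuronal genes that the repressor REST silences, 1 rose and 2 fell (18.8%), with a median of -0.66 that was -0.10 without parental 2. DPYSL2, a protein of axon growth, had 1.25 and 1.58 CPM in line 2, against 11.7, 18.6 and 13 CPM in parental cells and fell by 3.35 (adjusted p 0.000638), and SCG3 fell with DMXL2. CALB1, the calcium buffer calbindin, rose by 2.05, a call lost without line 2 replicate 1 (0.124), line 2 replicate 2 (0.0731) or parental 2 (0.0631).

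Of 25 interferon-stimulated genes 0 rose and 1 fell (median -0.21, range -0.29 to -0.08). USP18, a negative regulator of the interferon response, had 0.0137 and 0.0767 CPM in line 2, against 1.82, 1.58 and 2.44 CPM in parental cells and fell by 5.59 (adjusted p 0.00463), and by 4.61 and 6.92 without line 2 replicate 1 and 2. Antigen presentation genes had 1 of 13 called (median -0.08, range -0.57 to 0.16): HLA-C fell by 3.30, a call lost without line 2 replicate 1 (0.135), line 2 replicate 2 (0.101, fall 3.93), parental 1 (0.0804) or parental 2 (0.0631), and its reads may be shared with other HLA genes. Glycolysis and hypoxia genes had 1 of 30 higher and 1 lower (6.67% called), with a median of 0.17 that was -0.26 without line 2 replicate 2 and 0.56 without replicate 1. ENO2, the neuronal enolase, had 34.3 and 39.5 CPM in line 2, against 10.8, 16 and 14.2 CPM in parental cells and rose by 1.43 (adjusted p 0.0052, 0.0697 without line 2 replicate 2). NDRG1, a hypoxia-induced gene, had 0 and 0 CPM in line 2, against 0.19, 0.843 and 0.379 CPM in parental cells, at least 18.6-fold lower in line 2, a call lost without line 2 replicate 1 (0.122), line 2 replicate 2 (0.139) or parental 2 (0.0603). Of 32 sterol and fatty acid genes ACSS3, an acyl-CoA synthetase, fell, at least 51.8-fold (adjusted p 0.00363), with no counts in line 1 either. That list's median was -0.15 (-0.40 to 0.33).

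The LSD1 complex and its recruiters had 0 of 23 members higher and 1 lower (median -0.04, range -0.06 to 0.14). HMG20B, a CoREST complex subunit on 19p, had 60.2 and 64.4 CPM in line 2, against 83.2, 93.8 and 112 CPM in parental cells and fell by 0.63 (adjusted p 0.0497), a call lost in those 6 fits too (adjusted p up to 0.255). Among 33 enzymes and readers of H3K4 methylation and histone acetylation, 0 rose and 1 fell (median -0.01, range -0.06 to 0.18). No member passed in edgeR of the lists for mitosis (34 tested, 5 with an unadjusted p under 0.05, DESeq2 0), cytosolic chaperones (23, 2, 0), ribosome biogenesis and MYC (34, 8, 2), HOX genes (16, 4, 0) or solute carriers (24, 10, 5). DESeq2 was run without the filter on low counts and gave values for 20 chaperones, 23 HOX genes and 27 solute carriers. Its calls are therefore not a share of the genes tested in edgeR. The edgeR medians, in the order of the lists above, were 0.06, 0.06, 0.24, -0.17 and 0.00. Without 1 library they ranged from 0.02 to 0.18 for mitosis, from -0.19 to 0.57 for chaperones, from -0.05 to 0.48 for ribosome biogenesis, from -0.34 to 0.05 for HOX genes and from -0.02 to 0.09 for solute carriers. MKI67, the proliferation marker Ki-67, had 1117 and 1261 CPM in line 2, against 933, 998 and 1055 CPM in parental cells (adjusted p 0.389). HSP90AA1, a heat-inducible chaperone, had 1972 and 4184 CPM in line 2, against 1389, 1703 and 6874 CPM in parental cells (adjusted p 0.947), with parental 3 the highest. HOXB9, a homeobox factor, had 188 and 174 CPM in line 2, against 259, 236 and 246 CPM in parental cells (adjusted p 0.0963).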

How the data were processed

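RNA was measured in 7 K562 libraries. Per the labels' protocols, the libraries were stranded (TruSeq, from poly-A RNA) and were read from both ends. Per the submitters' processing notes, STAR 2.7.3a, Bowtie2 2.5.1, HTSeq 0.11.2, Cufflinks 2.2.1, cutadapt 2.5, DESeq2, MultiQC 1.7 and FastQC 0.11.8 were used, and GRCh37 (hg19) was the build. Their order and settings, the strand setting of the counting among them, are not given in the sources used here. The authors deposited raw counts for 57773 genes, which were tested, and FPKM values, used for markers and as an alternative (114 repeat identifiers summed, 20 identifiers absent).

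The members, gene lists and naming rule were chosen with earlier results of these data known. Groups came from the sample titles. Counts were filtered with filterByExpr by group (19098 genes kept, 12645 protein-coding) and scaled by TMM. They were fitted with edgeR 4.0.16 (R 4.3.3, glmQLFit and glmQLFTest) over all 7 libraries in 3 groups, with Benjamini-Hochberg adjustment at 0.05. All adjusted p-values are from this test. The standard error was the size of the log2 fold change divided by the square root of F. CPM used TMM-scaled totals, and depth and floors are given with the results.

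Genes were named by a rule: called, at least 2-fold, a mean of at least 2 CPM in the higher group, and no overlap of line 2 and parental libraries. It took 12 protein-coding and 4 non-coding genes each way by size and 12 each way that also differed from line 1. It also took 8 each way called in both lines, 8 each way called in opposite directions and 8 each way by adjusted p at a mean of at least 20 CPM. Up to 4 called members of each list (else the 2 most abundant) were named too. For list members the limits on fold, CPM and overlap were not applied. The 34 lists hold 1010 symbols, of which 1001 matched and 822 were tested. Arms and gene order (18258 tested genes placed) came from GENCODE release 29 on GRCh38, and promoters from RefSeq on GRCh38.p14. The alternatives were DESeq2 1.42.0 size factors and Wald test, other filters, the 5 libraries alone, the replicate number as a block, limma 3.58.1 on log2(FPKM + 1) or log2(FPKM + 0.1), fold thresholds and each library left out. In simulated counts of line 2 against parental cells (18479 genes), 67, 67 and 66 genes were changed by 2-fold, 4-fold and 8-fold. They were drawn from genes above a minimum count. The share of them that was called was 14.9%, 64.2% and 84.8%, and 6.84% of the 117 calls were false. Fewer genes were changed there than were called in the data, so these shares need not hold for the data.

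Of the lists, 1 is not reported here, nor are some of the genes the rule takes. The deposited normalized counts and comparison tables were not used.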

Additional observations from a re-analysis of the deposited data

Results flagged for a closer look

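What marked a result here was that line 2 and line 1, set against the same parental libraries, differed by the test of line 2 against line 1 itself. This held for 641 genes that were called in line 2 and differed from line 1 in the same direction. The values below are log2 differences, line 2 minus line 1, of the named genes that passed both tests in edgeR at an adjusted p of 0.05, and no cause of any of them was tested. No group had 4 libraries, so no library was tested for standing apart within its group.

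Among genes at 0 counts in line 2, for which a fitted difference depends on the prior count and is no bound, the values were POF1B -13.24, SASH1 -11.79, GYG2 -11.16, CTD-2006C1.2 -10.91, the non-coding gene that overlaps SPIRE1 (reads cannot be told apart) -9.39, ZNF136 -8.79, RGS16 -8.40, TMOD2 -8.14, NDRG1 -7.56 and ZNF558 -6.09. Among genes at 1 to 3 counts they were TRIQK -7.93, GPC6 -6.20, JAG1 -5.13, SCG3 -5.73 and IGSF11 -4.10. All of these were lower in line 2.

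Further genes that were lower in line 2, named by size, by adjusted p or as neighbours, gave PTGER3 -7.25, DMXL2 -6.83, SYTL5 -7.50, TBC1D4 -4.09, SPIRE1 -3.05, MYO6 -3.74, CD99 -2.93, COLGALT2 -5.08, PAM -4.76, CHM -1.96, STK38L -1.47 and ARNTL2 -2.71. A second group of these gave ZNF626 -5.33, ZNF711 -5.43, CECR2 -4.81, LYSMD2 -4.99, SLMO1 -5.29, LINC00491 -4.48, RP11-78F17.1 -4.60 and IGF1R -1.60. Cell cycle and apoptosis genes gave CCND2 -4.69, CDK6 -1.20, CHAF1A -0.76, BCL2 -3.99 and PMAIP1 -0.94, and the polymerase subunit POLA1, which was higher, gave POLA1 0.74. Stress genes gave ERO1LB -3.83, STC2 -3.67, ATF3 -2.14, IER2 -1.33 and USP18 -3.50. Ribosomal and other genes of 19p gave RPL36 -1.05, RPS15 -0.97, RPS28 -0.96, TYK2 -0.89 and STK11 -0.72. Red cell, adhesion and receptor genes that were lower gave ADD2 -2.24, TMOD1 -1.18, P2RY1 -2.57, IL17RA -1.76, IL4R -2.06, LEF1 -0.92, VIM -0.86, ZEB1 -0.96, ITGB5 -1.85 and ARHGEF10 -3.00.

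Rises that were larger in line 2 gave STRA6 7.42, MDK 2.43, APOE 3.03, RBPMS2 3.55, LGALS3BP 3.46, FHL2 2.34, CASS4 1.04, NQO1 0.80, HIST2H2AB 1.10, H19 2.85, AC137934.1 1.47, ENO2 1.99, TBXAS1 2.29 and GP6 2.30. Rises from low parental levels gave LGALS12 10.92, LIN28A 6.19, SRGN 4.49, MAGEB1 6.71, MAGEB2 2.45, SCIN 4.28, SCRT2 7.29, FPR3 3.56, ZNF235 3.97, CKM 6.14 and C15orf26 5.02. LGALS12 had 0 counts in both line 1 libraries, so its fitted value depends on the prior count and is no bound. Line 1 counts were also few for SCRT2 (0 and 1), CKM (2 and 0), LIN28A (0 and 3) and C15orf26 (2 and 3). MAGEB1 had 1 count over both line 1 libraries. The sizes of these values are uncertain. Genes called in opposite directions in the lines gave CHST3 9.47, LAMB1 2.90, COL23A1 5.62, ARAP3 3.99, ANKRD33B 6.94, LINGO1 2.64, PIK3AP1 3.87 and CTB-26E19.1 4.95, higher in line 2, and GPR126 -5.73, DDX60L -6.25 and RP11-197K6.1 -3.41, lower in line 2. CD36 was higher in both lines than in parental cells and gave CD36 -4.14, and CSF2RB was lower in both and gave CSF2RB 3.36. The values of STRA6, CHST3 and ANKRD33B are also of uncertain size, with line 1 counts of 0 and 4, 1 and 0, and 2 and 1.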

How the results depend on the processing

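The count of 1078 genes called in line 2 was within 1.5 times under DESeq2 size factors (1072), a mean of at least 2 CPM (848), the 5 libraries alone (855), a fold of at least 2 (830) and a filter by 2 groups (1057, added after seeing the data). It moved to 2477 with no filter, 1948 in DESeq2's Wald test, 510 in edgeR's glmTreat against a fold of 1.5, and 149, 218 and 130 with limma on log2(FPKM + 1), log2(FPKM + 0.1) and log2(FPKM + 1) unfiltered (67 higher and 63 lower in the last). With no filter, in DESeq2 and under the replicate block, in that order, genes that also differed from line 1 numbered 1223, 1023 and 1908 (main 641), genes shared by both lines 403, 261 and 882 (main 75), and list members 216, 118 and 302 (main 69). Lower 19p genes numbered 273 unfiltered and 314 under the block (main 178). Leaving out 1 library gave 285 to 1848 calls, 168 to 1043 differing from line 1, 21 to 262 shared, 31 to 112 list members and 35 to 226 lower 19p genes. The causes were not tested. The KDM1A value of -0.04 turned to 0.12 under the block and to 0.10 in each limma fit, and ranged from -0.24 to 0.15 without 1 library. It did not pass under any of these. The replicate number as a block gave 3916 calls. Only the parental group has a replicate 3, so under the block parental 3 no longer entered the fitted difference. Deviations of same-numbered line 2 and parental libraries correlated at 0.19 and -0.09, and those of line 2 and line 1 at 0.272 (1 value, since each line has 2 libraries). The numbers were therefore not taken to pair the samples. Of 139 named genes 34 kept direction and call in every alternative run. Over all of them, 2212 values held 1894 with the same call, 309 that lost it, 9 that gained it and 0 with a reversed direction. With 2 line 2 libraries, 2-fold changes were mostly missed on simulated counts (14.9% recovered). Fewer genes were changed in that simulation than were called in the data, so this share need not hold here. A gene not called is not shown to be unchanged.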

Other observations

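Outside 19p and 19q, 4 stretches of at least 10 tested genes had a running median past 0.5 in size, all of them downward in line 2. On 7q, 31 genes from KIAA1147 to EPHA1 had a median log2 fold change of -0.83 in line 2 (3 lower), against 0.15 in line 1. On 22q, 10 genes from AP000525.9 to IL17RA had -1.07 (3 lower), against 0.21 in line 1. On 17q, 14 genes from ABCA10 to RPL38 had -0.58 (2 lower), against 0.16 in line 1. On 15q, 14 genes from LEO1 to RP11-139H15.1 had -0.46 (1 lower), against 0.04 in line 1. After 19p, the arm with the lowest median was 4q (-0.20, 29 of 449 genes lower, 6.46%). These values are descriptions by position, the neighbours share no test, and no cause was tested.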
